A study of Mus musculus with 11 samples.

Results

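Integrins are the receptors through which cells hold on to the extracellular matrix and to each other. Expression of 9 genes was followed here: 6 integrin alpha subunits (Itga4, Itga5, Itga6, Itga8, Itga9 and Itgav), 2 beta subunits (Itgb1 and Itgb5) and Vcam1, a cell-surface ligand of alpha 4 integrin. All probe sets annotated with exactly 1 gene symbol that was one of these names were taken, which gave 34 probe sets of the 45037 tested, for 9 of 18193 genes. Each gene had between 2 (Itga6 and Itga8) and 6 (Itgb1) probe sets. The RNA came from pools of mouse hearts taken at embryonic day 9.5, with 1 array per pool and 11 arrays in 3 genotype groups. The conditional knockout (CKO) group, with 5 arrays, was Gata4 flox/flox with Nkx2-5 cre/+. The double heterozygous group, with 3 arrays, was Gata4 flox/+ with Nkx2-5 cre/+. The control group, with 3 arrays, was Gata4 flox/+ with Nkx2-5 +/+. Every heart thus carried at least 1 floxed Gata4 allele, the gene of a transcription factor with zinc fingers that acts in the early heart, and the CKO and double heterozygous hearts also carried Cre recombinase at 1 copy of Nkx2-5, which encodes a homeodomain factor of heart progenitors and muscle. Cre is therefore expected only in cells that use Nkx2-5, and RNA of other cells of the pooled heart was measured together with theirs.

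An integrin is a pair of 1 alpha and 1 beta subunit, and the alpha subunit largely sets what it binds. Alpha 4 and alpha 9 pair with beta 1 and bind VCAM1 and fibronectin, alpha 5, alpha 8 and alpha v belong to the receptors that read the RGD motif of fibronectin and related proteins, and alpha 6 is a laminin receptor. In the mouse embryo alpha 4 integrin and VCAM1 are known for the contact between the epicardium and the myocardium, and embryos that lack either one fail to keep an epicardium. The question put to these data was whether Itga4 differed between the genotypes while the other subunits did not. It was put with the fall of Itga4 in these data already known, so the results below describe that fall.

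The promoters of Itga4 and of Itgb1, which encodes its beta partner, are shown because these 2 genes form 1 receptor and are set against each other below. Each sequence is 300 bases from RefSeq on build GRCm38.p6, plus strand, with 250 bases before the annotated start in lower case and the 50 bases from the start in capitals. Itga4 lies at chr2:79255176-79255475 and Itgb1 at chr8:128685404-128685703 in these windows.
Itga4: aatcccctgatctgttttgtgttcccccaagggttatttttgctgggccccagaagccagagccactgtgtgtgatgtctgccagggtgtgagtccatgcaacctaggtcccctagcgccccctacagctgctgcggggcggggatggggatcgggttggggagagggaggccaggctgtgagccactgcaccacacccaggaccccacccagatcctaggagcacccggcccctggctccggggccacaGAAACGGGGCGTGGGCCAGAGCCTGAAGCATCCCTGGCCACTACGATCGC
Itgb1: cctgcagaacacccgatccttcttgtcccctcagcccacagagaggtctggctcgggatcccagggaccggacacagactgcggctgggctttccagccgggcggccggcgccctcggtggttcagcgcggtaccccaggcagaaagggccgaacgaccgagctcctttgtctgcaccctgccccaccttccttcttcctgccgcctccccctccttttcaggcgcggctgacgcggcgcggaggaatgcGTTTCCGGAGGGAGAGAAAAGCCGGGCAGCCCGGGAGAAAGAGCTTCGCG
The letters GATA, the core of the motif that GATA factors bind, were searched on both strands of the 7 members with a RefSeq window (Itga4, Itga5, Itga8, Itga9, Itgav, Itgb1 and Itgb5). The bases of these windows were 56.7% to 67.3% G and C. The letters GATA occurred in 0 of the 7 windows, and in 57.9% of all 32851 windows of this length, a share not matched for base content. This says only that the letters are not in these windows.

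Values are given as log2(deposited intensity + 16) after quantile normalisation. On this scale a deposited value of 0 lies near 4, and fold changes of dim probe sets are understated. Gata4 itself, the floxed gene, was not lower in the CKO-labelled arrays: it averaged 9.43 ± 0.11 in CKO-labelled, 9.31 ± 0.097 in double heterozygous and 8.98 ± 0.19 in control arrays (SD, n = 5, 3 and 3; CKO minus control 0.45, adjusted p = 0.0321). The sources used here do not say whether its probe set lies in the deleted exons, so Gata4 checks no label and the arrays are called CKO-labelled. Nkx2-5 averaged 9.34 in CKO-labelled and 9.48 in double heterozygous arrays, both of which carry Cre at that gene, against 9.87 in control arrays (CKO minus control -0.53, adjusted p = 0.0990). Mean deposited intensity was 117.2 in CKO replicate 3 and lay between 166.4 and 175.6 in the other 10 arrays. The actin 3' minus 5' difference, a measure of RNA or label length, was 1.0 on the log2 scale in CKO replicate 2 and between 0.295 and 0.450 in the other 10 arrays. Of the 34 probe sets, the 5 called between CKO-labelled and control arrays were called without either array and without both. The fold change of no probe set moved by more than 0.252 with 1 or both left out, and values without them are given beside the results they touch. The labels do not say whether the pools came from separate litters or days, and the p-values cover the spread between these arrays alone, part of which may be technical.

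Itga4 was lower in CKO-labelled hearts than in control hearts, by 3.88-fold on its brightest probe set, and double heterozygous hearts lay between them. On probe set 1436037_at, which represents the gene, the 5 CKO-labelled arrays read 4.98, 4.94, 5.48, 6.18 and 5.28. The double heterozygous arrays read 5.96, 6.80 and 6.38, and the control arrays read 7.24, 7.55 and 7.20. All CKO-labelled and all double heterozygous arrays thus lay below all control arrays, while CKO replicate 4 reached above double heterozygous replicate 1. As deposited, the intensities of this probe set were 16.87, 14.17, 19.85, 65.11 and 27.54 in CKO-labelled arrays, 45.64, 98.8 and 67.3 in double heterozygous arrays and 140.16, 181.03 and 141.11 in control arrays. The log2 fold change of CKO minus control was -1.96 (SE 0.25, 95% interval -2.49 to -1.42, adjusted p = 0.000870 with limma). It was -1.87 without CKO replicates 2 and 3 together, and the call held in all 22 alternative settings, from -2.52 to -1.06. In pooled hearts, fewer cells that use Itga4 and less Itga4 RNA per cell cannot be told apart.

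A further pair of Itga4 probe sets gave the same order of groups. Probe set 1456498_at read 4.36, 4.74, 4.84, 5.37 and 4.92 in CKO-labelled arrays, 5.23, 5.68 and 5.50 in double heterozygous arrays and 6.21, 5.87 and 6.03 in control arrays. CKO-labelled arrays again lay below control arrays without overlap (log2 fold change -1.19, SE 0.20, adjusted p = 0.00663, and -1.10 with adjusted p = 0.0709 without control replicate 1). Probe set 1421194_at read 4.96, 4.0, 5.81, 5.66 and 4.57 in CKO-labelled arrays, 6.0, 5.85 and 5.52 in double heterozygous arrays and 6.38, 6.77 and 6.37 in control arrays. Its value in CKO replicate 2 stood at 0 as deposited, and its groups did not overlap between CKO-labelled and control arrays either (log2 fold change -1.51, SE 0.32, adjusted p = 0.0309, and -1.26 with adjusted p = 0.0216 without CKO replicate 2). Of 20 alternatives 11 ended this last call, for example with each control array, double heterozygous replicate 1 or 2, or CKO replicate 5 left out.

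The remaining Itga4 probe sets were dim and were not called. Probe set 1450155_at read between 4.02 and 4.88 in CKO-labelled arrays, between 4.06 and 4.44 in double heterozygous arrays and between 4.96 and 5.11 in control arrays (CKO minus control -0.58, adjusted p = 0.126). Probe set 1427615_at lay between 0.01 and 6.94 as deposited in all 11 arrays, at the floor of the scale, and gave a difference of -0.07 (adjusted p = 0.891). On these 5 probe sets the group means of CKO-labelled arrays were thus all below those of control arrays, 3 of them called.

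**Figure D1:**
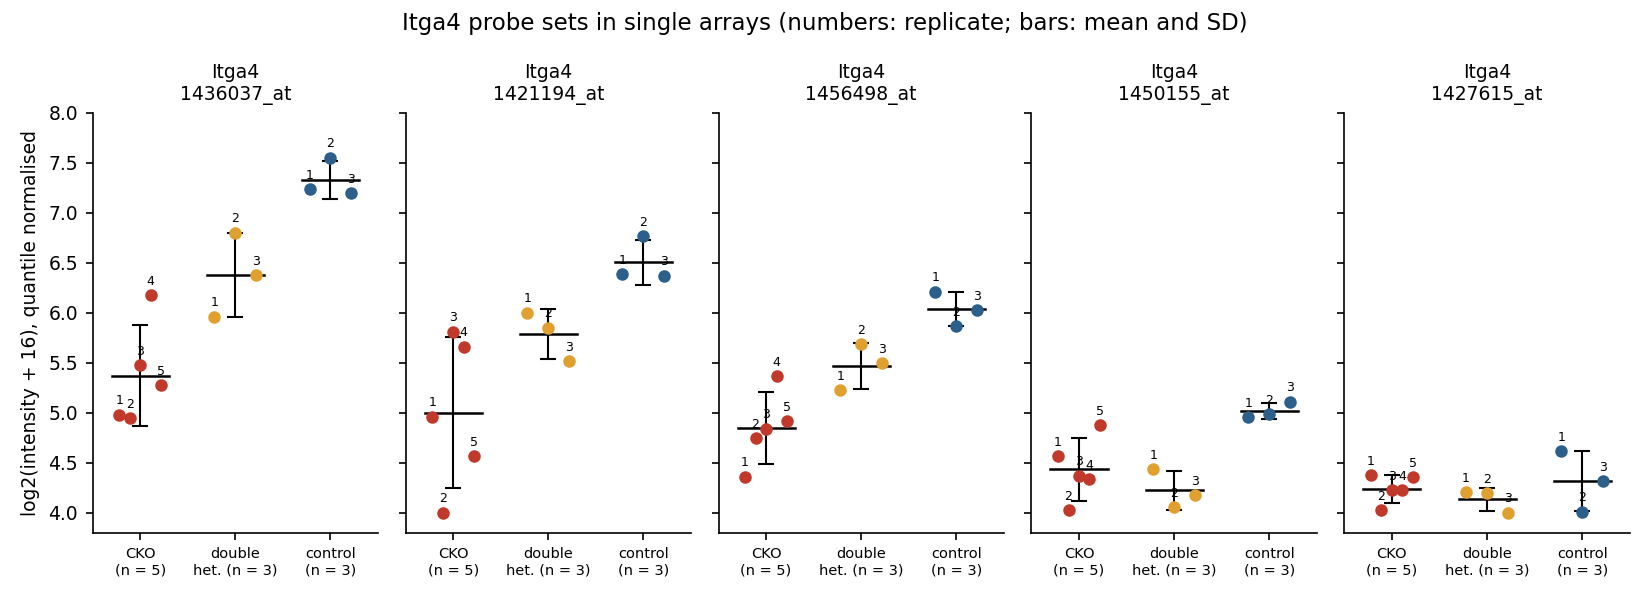
The 5 Itga4 probe sets, 1 panel each, with log2(intensity + 16) after normalisation on the vertical axis, 1 point per array and bars at the mean and SD of each group, for CKO-labelled, double heterozygous and control arrays. On 1436037_at the CKO-labelled arrays lie between 4.94 and 6.18 and the control arrays between 7.20 and 7.55.

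Some markers of other cells moved in the same arrays as Itga4. Of 13 markers of the proepicardium and mesothelium, the source and kin of the epicardium, 10 had lower means in CKO-labelled than in control arrays, with a median log2 fold change of -0.48. They include 3 that are reported by name because they were called lower: Tcf21, a transcription factor of the epicardial lineage (-1.31, SE 0.25, adjusted p = 0.0171), Lrrn4, a leucine-rich repeat protein of mesothelium (-1.20, SE 0.20, adjusted p = 0.00619), and Upk1b, a uroplakin of mesothelium (-1.0, SE 0.19, adjusted p = 0.0151). Of 21 alternatives, 4 ended the call of Tcf21, 3 that of Lrrn4 and 5 that of Upk1b, among them leaving out control replicate 2 or 3 for each, and control replicate 1 for Tcf21 and Upk1b. Krt19, a keratin of simple epithelia that also marks mesothelium, was higher (1.59, SE 0.099, adjusted p = 1.69e-06). The summed level of the 13 markers was 2706 to 3268 in CKO-labelled, 2258 to 2530 in double heterozygous and 2579 to 2806 in control arrays, and no marker was at 0 in any array. Most of this sum came from Krt19 and Podxl, a sialomucin of epithelia and vessels. Without Krt19 the other 12 summed to 1467 to 1903 in CKO-labelled, 1738 to 2001 in double heterozygous and 2177 to 2279 in control arrays. Without Podxl as well, the other 11 summed to 397.2 to 1091 in CKO-labelled, 616.8 to 959.6 in double heterozygous and 1229 to 1343 in control arrays. Leaving out Krt19 alone, the marker called higher, thus already put every array with Cre below every control array. It was left out after its values were seen, and with all 13 markers the CKO-labelled and control sums overlapped. Blood leukocytes also use Itga4. Of 7 leukocyte markers 0 were called by limma between CKO-labelled and control arrays and 3 had an unadjusted p under 0.05. On the whole array 1.40% of probe sets, dim ones included, were called in this comparison and 13.2% had such a p. The summed level of the 7 leukocyte markers was 250.2 to 382.4 in CKO-labelled, 246.8 to 319.9 in double heterozygous and 294.7 to 304.4 in control arrays. The part of these cells in the fall of Itga4 was not tested.

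Among all 34 probe sets of the 9 genes, 5 passed the test of CKO-labelled against control arrays with limma at an adjusted p under 0.05: 3 fell, all of Itga4, and 2 rose, both of Itga6. On the whole array 0.566% of probe sets were called lower and 0.837% higher (1.40% in either direction). The other 29 probe sets, with those of the 7 other genes, were not called. At an unadjusted p under 0.05 there were 13 of the 34 (10 lower and 3 higher), against 13.2% of all probe sets. The groups did not overlap for 12 of the 34 (9 lower and 3 higher), against 9.73% of all probe sets. The median log2 fold change was -0.17 over the 34 probe sets and -0.0079 over all. Probe sets of 1 gene share its RNA, so these counts do not stand for independent genes.

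**Figure D2:**
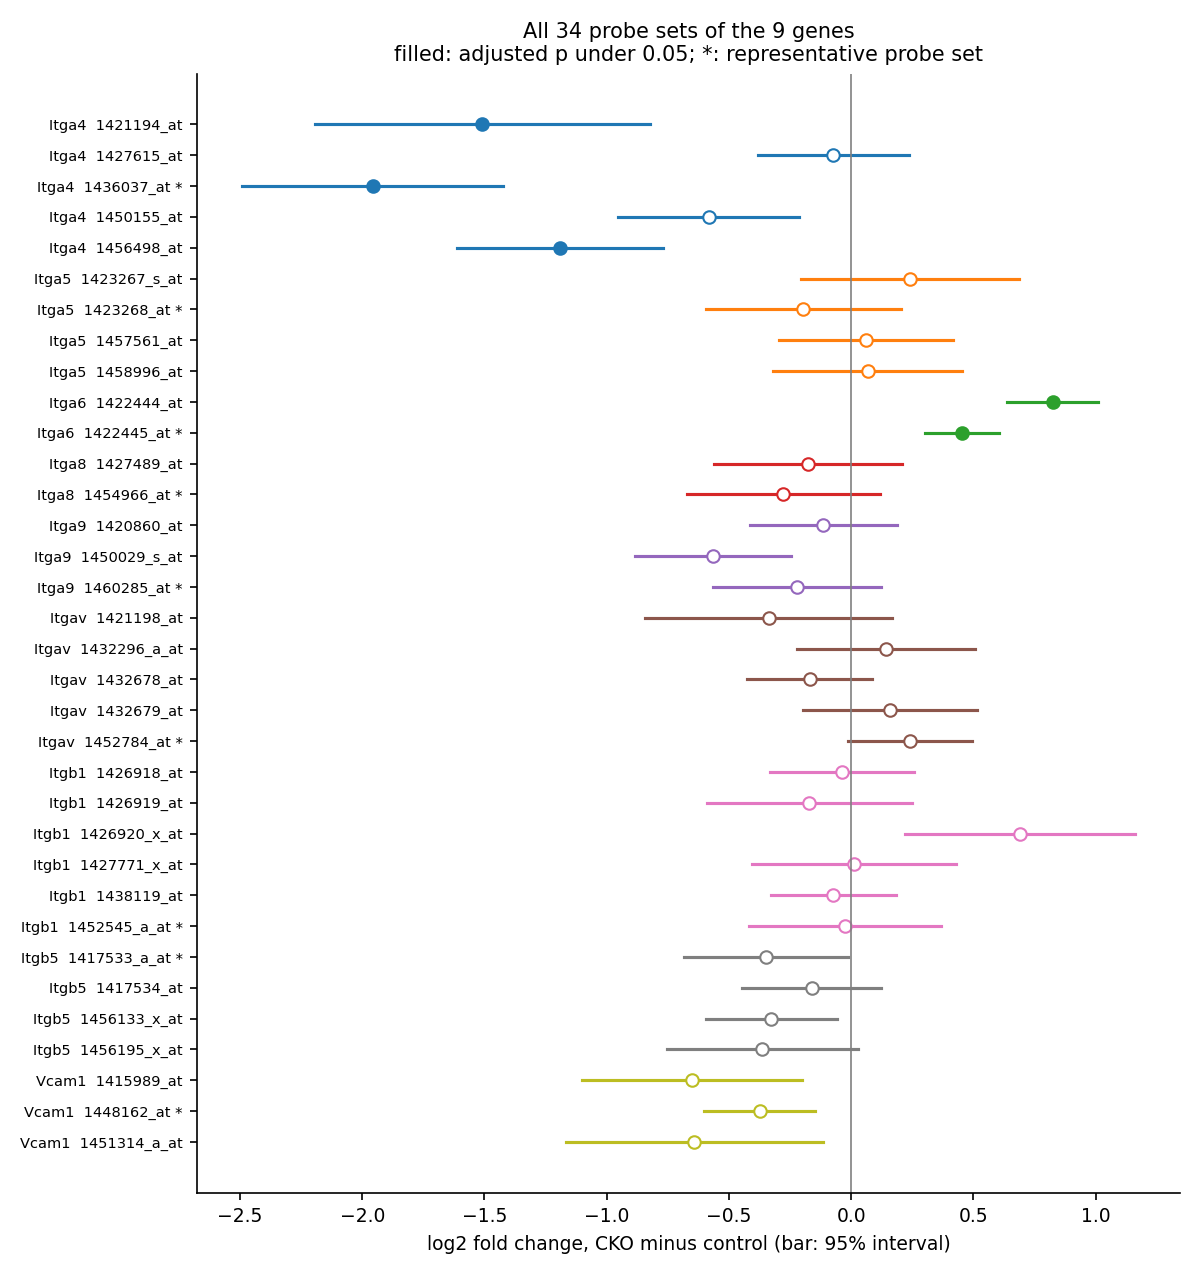
Log2 fold change of CKO-labelled minus control arrays for each of the 34 probe sets, grouped by gene, with 95% intervals, filled where the adjusted p was under 0.05. The 3 called Itga4 probe sets lie between -1.96 and -1.19, and the 2 called Itga6 probe sets at 0.45 and 0.82.

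Itgb1, a beta subunit with which alpha 4 pairs, did not show the fall of Itga4. Its representative probe set 1452545_a_at read 9.31, 8.45, 9.32, 9.57 and 9.20 in CKO-labelled arrays, 9.46, 9.05 and 9.20 in double heterozygous arrays and 9.21, 9.10 and 9.27 in control arrays. The groups overlapped, and CKO replicate 2 was the lowest array of all. The difference of CKO minus control was -0.03 (95% interval -0.42 to 0.37, adjusted p = 0.972), and 0.15 without CKO replicate 2. A second bright probe set, 1426918_at, gave -0.04 (95% interval -0.33 to 0.26). The cross-hybridising probe set 1426920_x_at, whose probes can match other transcripts, gave 0.69 (limma unadjusted p = 0.0069, adjusted p = 0.158). On it the CKO-labelled arrays lay above the control arrays without overlap, with control replicate 3 at 6.33 and the other control arrays at 7.57 and 7.54. The other Itgb1 probe sets gave between -0.17 and 0.01. Of them 1427771_x_at (0.01) is also of the cross-hybridising kind, and 1426919_at and 1438119_at were at the floor of the scale.

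Set against the other 8 genes within each array, Itga4 was lower in CKO-labelled hearts than in control hearts in every case. The difference of Itga4 minus Itgb1, whose size has no meaning within an array but can be compared between arrays, was -4.32, -3.50, -3.84, -3.39 and -3.92 in CKO-labelled arrays. It was -3.50, -2.25 and -2.82 in double heterozygous arrays and -1.97, -1.55 and -2.07 in control arrays. It averaged -3.79 ± 0.37 in CKO-labelled and -1.86 ± 0.28 in control arrays (SD, n = 5 and 3), a shift of -1.93, or 3.81-fold lower in CKO-labelled arrays. The exact two-sided permutation test gave p = 0.0357, the smallest that 5 against 3 arrays allow. The size of the shift depended on the offset and the probe sets: it was -2.50 with an offset of 1, -1.19 with an offset of 64 and -1.13 with all probe sets of each gene averaged, each with the same p. For each of the 8 other members the CKO-labelled arrays lay below the control arrays without overlap, with shifts from -1.58 against Vcam1 to -2.41 against Itga6. The shifts against the other genes were -1.61 (Itgb5), -1.68 (Itga8), -1.74 (Itga9), -1.76 (Itga5) and -2.20 (Itgav), and these carry no test of their own. All 8 differences hold the same Itga4 values, which by themselves already set these groups apart, so they restate the same fall. Itga4 was chosen with that fall known, so the permutation p is no independent support for it.

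**Figure D3:**
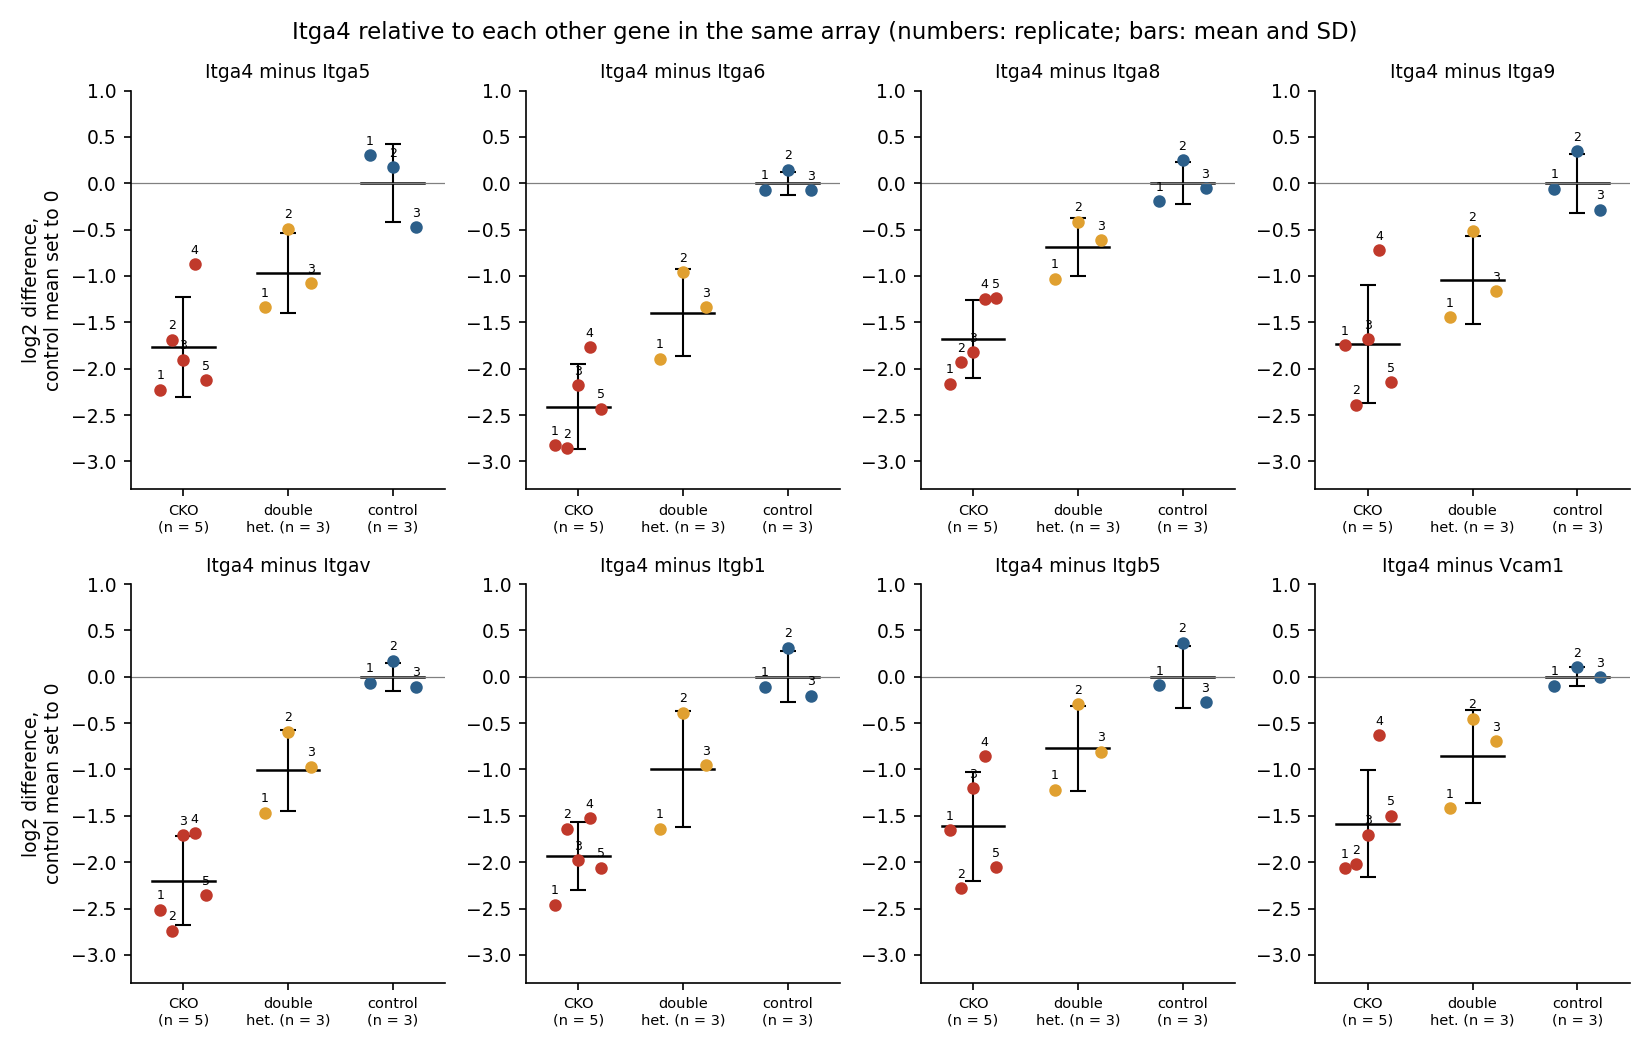
Itga4 minus each other member within the same array (log2, representative probe sets), 1 panel per member and 1 point per array in CKO-labelled, double heterozygous and control groups, with the control mean of each panel set to 0 and bars at the mean and SD. The CKO-labelled means lie between -2.41 (Itga6) and -1.58 (Vcam1), with no CKO-labelled array among the control arrays.

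Itga6, which encodes the alpha subunit of laminin receptors, was higher in CKO-labelled than in control hearts, and double heterozygous hearts also read above control hearts. Probe set 1422445_at read 11.21, 11.20, 11.05, 11.35 and 11.11 in CKO-labelled arrays, 11.25, 11.16 and 11.12 in double heterozygous arrays and 10.71, 10.81 and 10.68 in control arrays. All arrays with Cre lay above all control arrays, and those 2 genotypes overlapped. The log2 fold change of CKO minus control was 0.45 (SE 0.071, adjusted p = 0.00457), that of double heterozygous minus control was also 0.45 (adjusted p = 0.345), and CKO minus double heterozygous was 0.01 (95% interval -0.15 to 0.16). Probe set 1422444_at read 11.10, 11.33, 11.18, 11.42 and 11.37 in CKO-labelled arrays, 11.01, 10.80 and 11.13 in double heterozygous arrays and 10.50, 10.47 and 10.39 in control arrays. Here the fold change was 0.82 for CKO minus control (SE 0.087, adjusted p = 0.000198), 0.53 for double heterozygous minus control (adjusted p = 0.373) and 0.30 for CKO minus double heterozygous (adjusted p = 0.180). Both calls depended on the scaling between arrays: on the deposited scale they were lost at 0.30 (adjusted p = 0.583) and 0.67 (adjusted p = 0.0880), and with median centring the value of 1422445_at was 0.29 (adjusted p = 0.252).

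Endothelial cells use Itga6, and several of their markers were also higher in CKO-labelled arrays. Of 11 markers of endothelium and endocardium, 3 were called higher, the receptors Flt1 (0.98) and Kdr (0.68) and the cadherin Cdh5 (0.63, a call lost in 10 of 21 alternatives), and 1 was called lower, the receptor Tek (-0.65). Means were higher for 10 of the 11 (median 0.33), and 1.40% of all probe sets, dim ones included, were called in either direction. The call of Kdr was lost without control replicate 1 or 2, with median centring (adjusted p = 0.0932) and with the unmoderated test. On the deposited scale the calls of Flt1 (adjusted p = 0.216), Kdr (adjusted p = 0.375) and Cdh5 (adjusted p = 0.468) were all lost, as was that of Flt1 with the unmoderated test (adjusted p = 0.0562). The summed level of the 11 markers was 3349 to 3873 in CKO-labelled, 2842 to 2969 in double heterozygous and 2854 to 3034 in control arrays, and none was at 0 in any array. The sum was thus higher in CKO-labelled arrays, while the double heterozygous arrays, which also lay above control arrays for Itga6, overlapped the control arrays. Their part in the value of Itga6 was not tested.

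Vcam1, the partner of alpha 4 integrin on the facing cell, read lower on all 3 of its probe sets in CKO-labelled arrays without passing the test. Probe set 1448162_at read 9.20, 9.13, 9.34, 8.97 and 8.94 in CKO-labelled arrays, 9.54, 9.42 and 9.23 in double heterozygous arrays and 9.5, 9.61 and 9.36 in control arrays. The CKO-labelled arrays lay below the control arrays without overlap, but by a narrow margin, 9.34 in CKO replicate 3 against 9.36 in control replicate 3. The log2 fold change was -0.37 (SE 0.11, 95% interval -0.60 to -0.15, adjusted p = 0.109). Without CKO replicate 3 it was -0.43 and called (adjusted p = 0.0447), and without CKO replicates 2 and 3 it was -0.45 (adjusted p = 0.0294). In 20 of 22 alternatives it stayed uncalled. Probe set 1415989_at read 8.19, 7.01, 8.10, 7.61 and 7.38 in CKO-labelled arrays, 8.34, 8.22 and 8.01 in double heterozygous arrays and 8.46, 8.23 and 8.24 in control arrays, a difference of -0.65 (adjusted p = 0.163). Probe set 1451314_a_at read 7.07, 5.68, 7.11, 6.65 and 6.37 in CKO-labelled arrays, 7.37, 7.28 and 7.01 in double heterozygous arrays and 7.21, 7.19 and 7.25 in control arrays, a difference of -0.64 (adjusted p = 0.260). CKO replicate 2, the array with the large actin difference, was the lowest on both of these probe sets, and without it the differences were -0.49 (adjusted p = 0.164) and -0.42 (adjusted p = 0.234). Double heterozygous arrays differed from control arrays by -0.12, -0.09 and 0.00 on the 3 probe sets, and none of these was called.

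**Figure D4:**
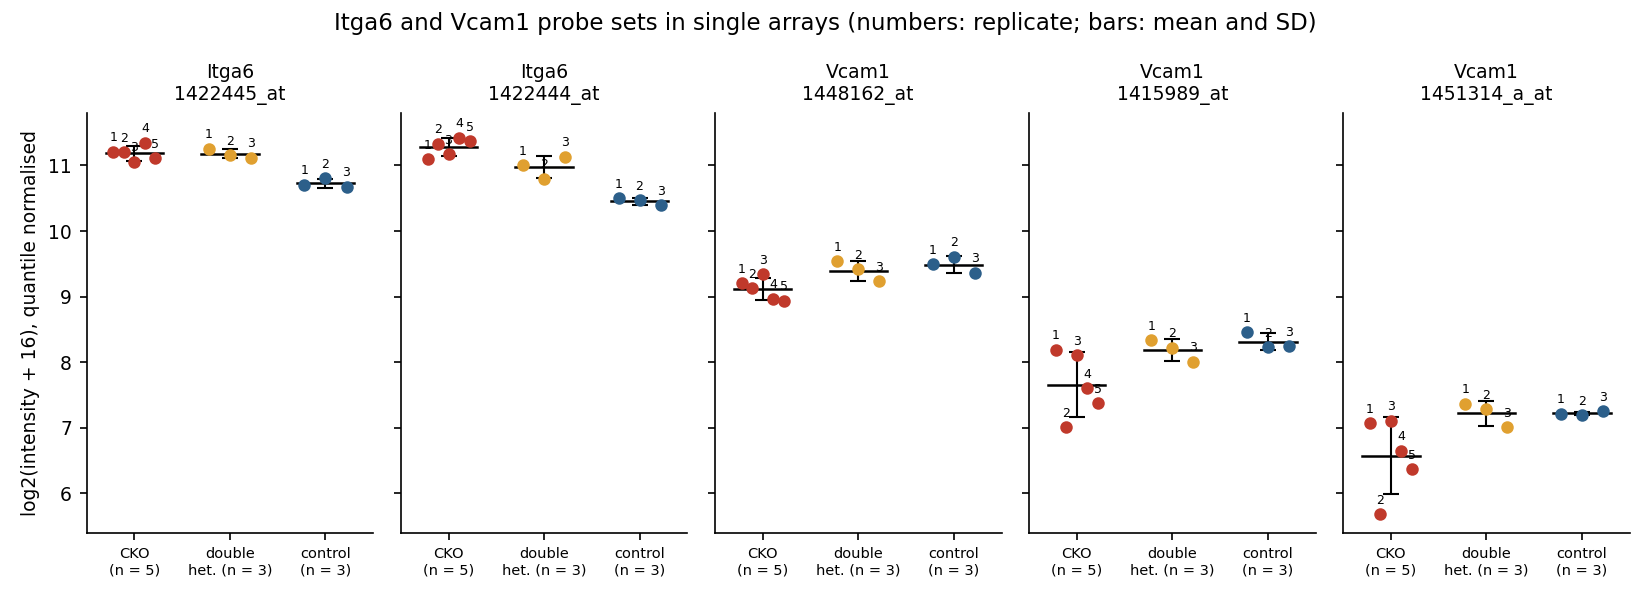
The 2 Itga6 and 3 Vcam1 probe sets, 1 panel each, with log2(intensity + 16) after normalisation on the vertical axis and 1 point per array in CKO-labelled, double heterozygous and control groups, with bars at the mean and SD. Itga6 lies above the control arrays in both groups with Cre, and Vcam1 lies below the control arrays in the CKO-labelled group.

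The subunits of RGD-binding integrins, which share fibronectin and other matrix proteins as ligands, gave small differences that were not called. Itgav, the alpha v subunit, averaged 9.23 ± 0.25 in CKO-labelled, 9.05 ± 0.038 in double heterozygous and 8.99 ± 0.044 in control arrays on its representative probe set (CKO minus control 0.24, 95% interval -0.01 to 0.50, adjusted p = 0.407). Its 4 dimmer probe sets gave between -0.34 and 0.16. Itgb5, a beta subunit that pairs with alpha v, averaged 6.95 ± 0.31 in CKO-labelled, 7.12 ± 0.052 in double heterozygous and 7.30 ± 0.15 in control arrays (-0.35, 95% interval -0.68 to -0.01, adjusted p = 0.357). The means of all 4 Itgb5 probe sets were lower in CKO-labelled arrays, from -0.36 to -0.16, and on 1 of them, 1456133_x_at, the groups did not overlap (-0.33, adjusted p = 0.258). Itga5, the alpha subunit of the classical fibronectin receptor, averaged 6.57 ± 0.32 in CKO-labelled, 6.78 ± 0.091 in double heterozygous and 6.76 ± 0.37 in control arrays (-0.19, 95% interval -0.59 to 0.20, adjusted p = 0.730). Its other 3 probe sets gave between 0.06 and 0.24, so the direction was not the same across probe sets. Itga8, which pairs with beta 1, averaged 5.66 ± 0.36 in CKO-labelled, 5.68 ± 0.13 in double heterozygous and 5.94 ± 0.094 in control arrays (-0.28, 95% interval -0.67 to 0.12, adjusted p = 0.581), and its second probe set was dim at -0.18.

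Itga9 encodes the alpha subunit closest to alpha 4 in kind, with VCAM1 among its ligands. Its representative probe set 1460285_at read 5.82, 6.42, 6.25, 6.0 and 6.52 in CKO-labelled arrays, 6.50, 6.41 and 6.64 in double heterozygous arrays and 6.39, 6.30 and 6.57 in control arrays. The groups overlapped and the difference of CKO minus control was -0.22 (95% interval -0.56 to 0.12, adjusted p = 0.623). A second probe set, 1450029_s_at, read 6.10, 5.66, 5.75, 6.14 and 6.20 in CKO-labelled arrays, 6.38, 6.27 and 6.46 in double heterozygous arrays and 6.65, 6.40 and 6.55 in control arrays. On it the CKO-labelled arrays lay below both other groups without overlap (-0.57 against control arrays, adjusted p = 0.0840, and -0.40 against double heterozygous arrays, adjusted p = 0.302). The third probe set gave -0.11. The lowest bound among the 95% intervals of these 3 probe sets was -0.88, short of the -1.96 of Itga4 on its brightest probe set. The intervals of the other called Itga4 probe sets, -1.61 to -0.77 (1456498_at) and -2.19 to -0.82 (1421194_at), reached that bound.

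By their labels, CKO and double heterozygous hearts both carry Cre at Nkx2-5 and differ in the number of floxed Gata4 alleles. In the comparison of these 2 groups 0 of the 34 probe sets were called, against 0.349% of all probe sets, and 9 of the 34 had an unadjusted p under 0.05 (8 lower and 1 higher, against 12% of all). The groups did not overlap for 3 of the 34, against 7.52% of all. The lower value of Itga4 in CKO-labelled hearts was -1.01 on 1436037_at (SE 0.25, 95% interval -1.54 to -0.47, unadjusted p = 0.0011, adjusted p = 0.116), and it was called without CKO replicate 4 (-1.21, adjusted p = 0.0241) and with the replicate number as a block (-1.25, adjusted p = 0.0482). In 20 of 22 alternatives it stayed uncalled. The other Itga4 probe sets gave -0.79 (1421194_at), -0.62 (1456498_at), 0.21 (1450155_at) and 0.11 (1427615_at). The 8 lower probe sets also held all 3 of Vcam1, at -0.53 (1415989_at), -0.28 (1448162_at) and -0.64 (1451314_a_at), and Itga9 1450029_s_at (-0.40). The 1 higher was Itga6 1422444_at (0.30). The smallest adjusted p of the 9 genes was that of Itgb1 probe set 1438119_at (-0.58, adjusted p = 0.0567), which was at 0 as deposited in 5 of the 11 arrays and is not read as a level.

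Double heterozygous and control hearts differ by Cre at 1 copy of Nkx2-5, which takes the place of that copy and can also delete the single floxed Gata4 allele that both groups carry. In this comparison 0 of the 34 probe sets were called with limma, as were 0% of all 45037, while 8 of the 34 had an unadjusted p under 0.05 (5 lower and 3 higher, against 3.19% of all). The groups did not overlap for 11 of the 34 (8 lower and 3 higher), against 10.3% of all. Itga4 was at -0.95 on 1436037_at (SE 0.28, 95% interval -1.55 to -0.35, unadjusted p = 0.0041, adjusted p = 1), close to the -1.01 of CKO minus double heterozygous. On 1421194_at and 1456498_at it was at -0.72 and -0.57. The groups did not overlap on these 3 probe sets nor on the dim 1450155_at (-0.79), and the fifth gave -0.18. Of the 13 markers of the proepicardium and mesothelium 11 also had lower means in double heterozygous than in control arrays (median -0.41), 0 were called by limma and 7 had an unadjusted p under 0.05. Their part in the value of Itga4 was not tested. The comparisons share their double heterozygous arrays, so the steps are given side by side only. In the F-test over the 3 groups 4 of the 34 probe sets were called, against 0.961% of all: Itga4 1436037_at (adjusted p = 0.00251) and 1456498_at (adjusted p = 0.0178), and Itga6 1422444_at (adjusted p = 0.000635) and 1422445_at (adjusted p = 0.00817).

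The other genes of integrin adhesion were compared between CKO-labelled and control arrays in 4 lists. On the whole array 1.40% of probe sets, dim ones included, were called in this comparison. Among 16 other integrin subunits 0 were called by limma and 1 had an unadjusted p under 0.05. The smallest p were those of Itga1, an alpha subunit of collagen receptors (0.28, adjusted p = 0.363), and Itga3, a laminin receptor subunit (0.25, adjusted p = 0.505). Their median was -0.04, against -0.02 over all genes. Of 22 integrin ligands of the matrix 1 was called: Emilin2, an elastic-fibre glycoprotein, averaged 8.86 ± 0.16 in CKO-labelled, 9.26 ± 0.086 in double heterozygous and 9.57 ± 0.086 in control arrays (-0.70, SE 0.097, adjusted p = 0.00164). Its call held in all 21 alternatives. Fn1, fibronectin, a ligand of both alpha 4 and alpha 5 integrin, averaged 11.30 ± 0.094 in CKO-labelled, 11.53 ± 0.057 in double heterozygous and 11.57 ± 0.026 in control arrays (-0.27, SE 0.063, adjusted p = 0.0515), and it was called without CKO replicate 2 (adjusted p = 0.0451) or CKO replicate 4 (adjusted p = 0.0383). In 17 of 21 alternatives Fn1 stayed uncalled, for example on the deposited scale (adjusted p = 0.354). The ligands' median was 0.13, since 13 of the 22 had higher means.

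Inside the cell, 1 of 22 activators, adaptors and focal adhesion proteins was called. Lims2, also named PINCH2, a partner of integrin-linked kinase, averaged 6.50 ± 0.27 in CKO-labelled, 5.49 ± 0.17 in double heterozygous and 5.29 ± 0.14 in control arrays. It was higher in CKO-labelled arrays by 1.21 against control arrays (SE 0.16, adjusted p = 0.00154) and by 1.01 against double heterozygous arrays (adjusted p = 0.0136), with no overlap in either. Bcar1, the docking protein p130Cas, followed at 0.54 (adjusted p = 0.130), and it was called without CKO replicate 3 (0.64, adjusted p = 0.0309). In 19 of 21 alternatives Bcar1 stayed uncalled. The median of these 22 genes was 0.02. Of 13 adhesion molecules of the immunoglobulin superfamily and their junctional partners, the endothelial cadherin Cdh5 was called higher (SE 0.12, adjusted p = 0.0189) and the neural cell adhesion molecule Ncam1 was at 0.38 (adjusted p = 0.161). The lost calls of Cdh5 came with each single control array or CKO replicate 5 left out among them. Of the 73 entries of these 4 adhesion lists 3 passed the test of CKO-labelled against control arrays, against 1.40% of all probe sets. An unadjusted p under 0.05 was found for 19, against 13.2% of all probe sets. These were 7 of 22 ligands, 5 of 22 adaptors, 6 of 13 adhesion partners and the 1 of 16 integrin subunits. Between double heterozygous and control arrays 0 of the 73 were called by limma, and 3 had an unadjusted p under 0.05, against 3.19% of all. The 73 entries are representative probe sets, chosen for brightness. The shares over all probe sets include dim ones, so the bases are not alike.

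**Figure D5:**
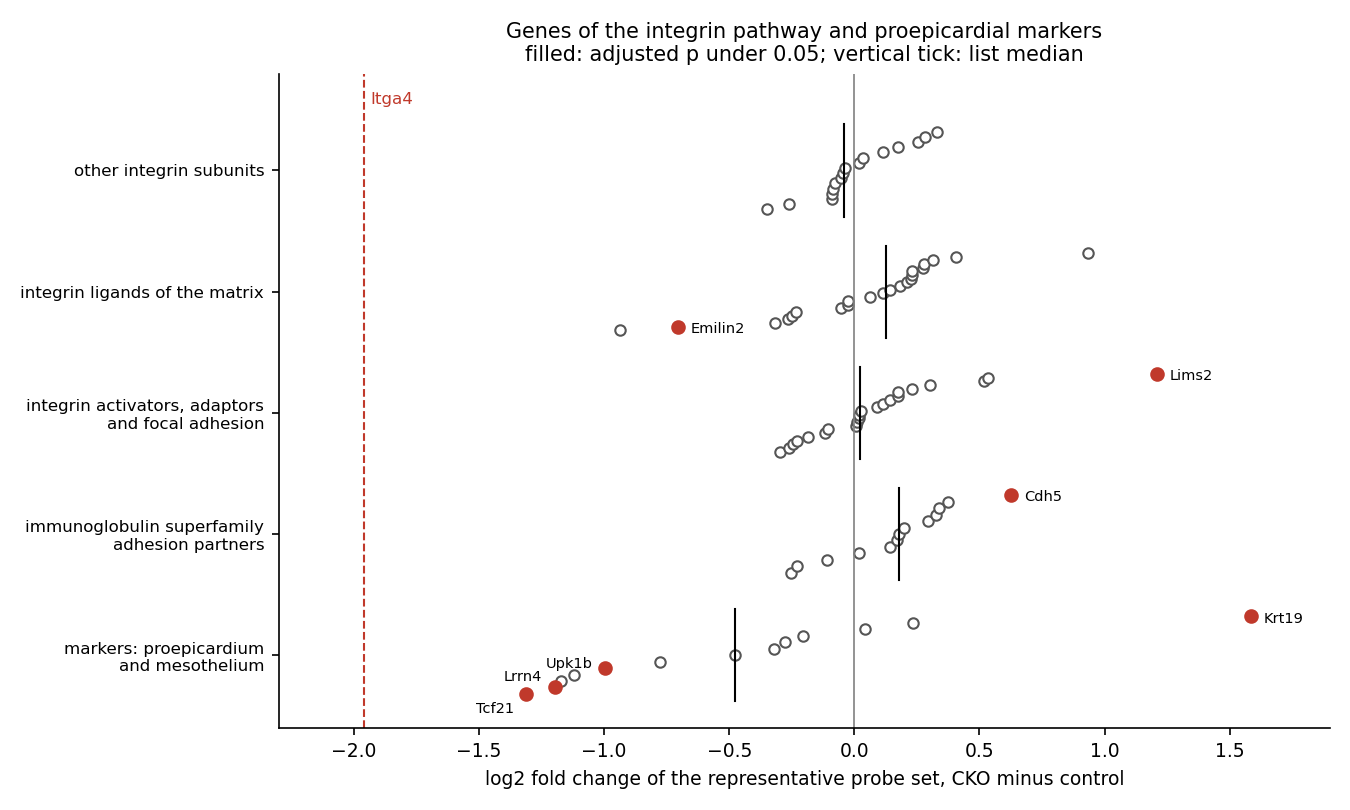
Log2 fold change of CKO-labelled minus control arrays for the measured genes of 4 lists of integrin adhesion and of the proepicardial markers, 1 point per gene on its representative probe set, filled where the adjusted p was under 0.05, with a tick at each list's median. Emilin2, Lims2 and Cdh5 are the called adhesion genes, and the dashed line marks Itga4 at -1.96.

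The genes whose values followed Itga4 most closely over the 11 arrays were found by Pearson correlation with 1436037_at among 6320 genes with a mean of at least 7. They were Heatr5b, a HEAT-repeat protein (r = 0.964), Acadm, a mitochondrial fatty acid dehydrogenase (r = 0.953), Tcf21 (r = 0.951), Stk26, a serine/threonine kinase (r = 0.949), and Prkag2, a regulatory subunit of AMP-activated kinase (r = 0.933). Spearman's rho was between 0.927 and 0.991 for the same genes. All arrays of the 3 genotypes enter these values, which therefore hold the differences between the groups, and they are a description with no test. Among these genes Tcf21 had the largest difference of CKO minus control (-1.31), followed by Stk26 (-0.98), Heatr5b (-0.73), Prkag2 (-0.43) and Acadm (-0.35). The call of Acadm (adjusted p = 0.0387) was lost in 12 of 21 alternatives, among them without each single control or double heterozygous array and without CKO replicate 5. That of Stk26 was lost without control replicate 1 or 2, and Prkag2 (adjusted p = 0.0835) was called without CKO replicate 4 (adjusted p = 0.0466). In 18 of 21 alternatives Prkag2 stayed uncalled.

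The nearest measured genes on the chromosome of Itga4, by their order in RefSeq on GRCm38.p6, gave smaller differences, and the pair after it cannot bear on a fall of that size. Before it lie Ube2e3, a ubiquitin-conjugating enzyme (-0.25, adjusted p = 0.0804, with CKO-labelled below control arrays without overlap), and Cwc22, a splicing factor (-0.15, adjusted p = 0.623). After it lie Cerkl, a ceramide kinase-like protein (-0.09, adjusted p = 0.854), and Neurod1, a neuronal transcription factor (0.02, adjusted p = 0.970). Their control means, 4.22 and 4.45, lie near the floor of the scale, where a fall as large as that of Itga4 could not be seen. Ube2e3 was called without CKO replicates 2 and 3 (-0.26, adjusted p = 0.0456) and stayed uncalled in 18 of 21 alternatives.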

How the data were processed

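RNA of pooled mouse hearts was amplified, labelled with biotin and hybridised to 1-colour arrays, per the labels' protocols. As deposited, the table holds 1 intensity on a linear scale for each probe set and array. PLIER, which summarises the probes of a probe set, was the tool, per the submitters' processing notes; the sources used here do not give its version, the background correction or the scaling, and detection calls were not used. Groups came from the labelled genotypes. Deposited intensities were turned into log2(value + 16) and quantile normalised, since array medians spanned 0.465 on the log2 scale, and 64 control probe sets were left out. A linear model with 1 coefficient per genotype was fitted in limma 3.58.1 (R 4.3.3) over all 11 arrays, moderated by empirical Bayes with a trend on intensity (residual degrees of freedom 8, and 15.07 once moderated). P-values were two-sided and adjusted by Benjamini-Hochberg over 45037 probe sets per contrast, and calls were made at an adjusted p under 0.05. The F-test over 3 groups stands for the one-way analysis of the series description. The fit was tested on simulated data. Array number limits the precision.

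Symbols came from the platform's annotation (34945 probe sets with 1 symbol, 932 with several, 9160 with none). A gene was represented by its brightest probe set on average, with _x_at and _s_at probe sets used only where there was no other. Itga4 minus Itgb1 was compared with an exact permutation test (scipy 1.17.1, Python 3.11.15). Beside the members, the text names the genes called in each adhesion list, the 2 of smallest p in it, the nearest 2 measured genes on each side of Itga4, and the 5 most like it by Pearson r. Markers were named where called, after their values were seen. The 13 lists held 157 genes, of which 147 were measured. Members, lists and tests were chosen with earlier results of these data known, among them the falls of Itga4, Tcf21 and Lrrn4. The arrays were not paired by replicate number in the main fit (correlation of deviations from group means -0.056 to 0.15 between same-numbered arrays). These correlations cannot exclude that same-numbered pools shared a litter or day. Alternatives were other offsets, scalings, filters, tests, a replicate block and arrays left out.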

Additional observations from a re-analysis of the deposited data

Results flagged for a closer look

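Among the 5 CKO-labelled arrays, 34 member probe sets and the difference of Itga4 minus Itgb1 were searched for an array far from the other 4, a check that flags about 1 in 20 sets by chance. Of these 35 sets 2 stood out, both through CKO replicate 3, the array with the low mean intensity. Itga5 probe set 1458996_at read 6.36 in CKO replicate 3 and between 5.49 and 5.68 in the other CKO-labelled arrays, a gap of 0.786 of the range. Itgb1 probe set 1438119_at read 4.11 in CKO replicate 3 and 4.0 in the other CKO-labelled arrays, all of them at the floor of the scale.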

How the results depend on the processing

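The fall of Itga4 in CKO-labelled arrays (representative probe set) kept its call in 22 of 22 alternatives, with adjusted p from 0.000188 to 0.0427. The member probe sets called between CKO-labelled and control arrays, 5 as reported, were 3 on the deposited scale, without the intensity trend and with the unmoderated test, and 3 to 6 with single arrays left out (3 without control replicate 1). In the F-test, 4 as reported, they were 2 on the deposited scale, 1 unmoderated and 2 to 5 with single arrays left out (2 without control replicate 1 or 3). Between CKO-labelled and double heterozygous arrays, 0 as reported, 1 was called with the replicate block and 0 to 1 with single arrays left out (1 without CKO replicate 3 or 4). Itga4 was that 1 with the replicate block (-1.25, adjusted p = 0.0482), and its value there ranged from -1.21 to -0.79 with single arrays left out. The replicate block changed no other call of a representative member probe set. Over the whole array, 632 probe sets as reported became 92 on the deposited scale, 362 with median centring, 1002 with a mean of at least 6, 281 without the trend, 296 unmoderated, 263 with only the 2 groups fitted, 265 with the replicate block, 1362 without CKO replicates 2 and 3, and 168 to 897 with single arrays left out, with over 1.5 times fewer without each control array, double heterozygous replicate 1 or CKO replicate 5. The share of called probe sets that were higher was 59.65% as reported, 48.91% with the values left on the deposited scale and 39.23% after median centring. The shift of Itga4 minus Itgb1 ranged from -2.50 to -1.13 over all alternatives and from -2.04 to -1.77 with single arrays left out, and was -2.03 without CKO replicates 2 and 3 (exact p = 0.1). With any CKO-labelled or control array left out the permutation test cannot give a p below 0.05, so those p-values say nothing about the stability of the shift.

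Differences near 0 turned sign. For Itga8, CKO minus double heterozygous was 0.00087 with an offset of 64, 0.0082 on the deposited scale, 0.038 with the replicate block and -0.11 to 0.12 with single arrays left out. For Itga6 it was -0.12 on the deposited scale, -0.17 with median centring, -0.024 with the replicate block and -0.034 to 0.044 with single arrays left out. For Itgb1, CKO minus control was 0.16 without CKO replicates 2 and 3, 0.066 averaged over its probe sets and -0.13 to 0.15 with single arrays left out, and CKO minus double heterozygous was 0.12 without CKO replicates 2 and 3 and -0.17 to 0.11 with single arrays left out. Double heterozygous minus control was -0.070 to 0.14 for Itgb1 and -0.18 to 0.19 for Itga5 with single arrays left out, and -0.0062 for Itga5 on the deposited scale. With all probe sets of a gene averaged, Itga5 was 0.043 for CKO minus control and 0.030 for CKO minus double heterozygous, and double heterozygous minus control was -0.066 for Itga9 and -0.037 for Itgav. None of these values was called, and the cause of the changes was not tested. The alternatives for genes outside the 9 members and for the marker sum were chosen after seeing the data.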

Other observations

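Other cells of the dissected hearts were followed with lists of marker genes, counted as called between CKO-labelled and control arrays. On the whole array 1.40% of probe sets, dim ones included, were called in this comparison and 13.2% had an unadjusted p under 0.05. Of 10 myocardial markers 1 was higher, the myosin heavy chain Myh7 (0.27, adjusted p = 0.0154), and the list's median was 0.0026. Of 8 markers of cushion mesenchyme 1 was higher, the matrix proteoglycan Vcan (0.43, adjusted p = 0.00375), while 5 of the 8 had lower means and the median was -0.18. Of 6 measured neural crest markers 1 was lower, the neuregulin receptor Erbb3 (-0.78, adjusted p = 0.0171), while 4 of the 6 had higher means and the median was 0.25. Of 7 measured markers of pharyngeal and second heart field mesoderm 1 was higher, the transcription factor Isl1, which marks cardiac progenitors (1.38, adjusted p = 8.39e-05). Isl1 averaged 8.31 ± 0.19 in CKO-labelled, 7.62 ± 0.11 in double heterozygous and 6.94 ± 0.20 in control arrays (SD, n = 5, 3 and 3), so that, as for Itga4, the double heterozygous mean lay between the others. Of 8 measured erythroid markers 0 were called by limma and 2 had an unadjusted p under 0.05, and of 7 foregut endoderm markers 0 were called and 0 had such a p. These genes were named after their values were seen.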
